A study of Sus scrofa with 18 samples.

Results

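The 7 subunits of respiratory complex I that are encoded by the mitochondrial genome were followed through early cleavage of porcine parthenogenetic embryos. They were taken as the genes that the deposited table places on chromosome MT and names with a leading ND. This rule gave ND1, ND2, ND3, ND4, ND4L, ND5 and ND6, which are 7 of the 20983 genes in the table and all had enough counts to be tested. The rule uses no measured value.

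Complex I, the NADH dehydrogenase of the inner mitochondrial membrane, passes electrons from NADH to ubiquinone and pumps protons. Its membrane arm is built around the ND proteins. The accessory subunits and the arm that binds NADH come from nuclear genes and are imported. The mitochondrial genome is read as long precursors from both of its strands and cut into single RNAs, and all ND genes but ND6 lie on the transcripts of the heavy strand. In mammalian oocytes, mitochondria and their DNA are stored during growth and are divided among the cells of the cleaving embryo.

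The study asked how the medium used for oocyte maturation bears on activation of the embryonic genome, and total RNA of 18 pools of 20 embryos was sequenced, 3 pools for each of 6 groups. Cumulus-oocyte complexes came from ovaries of premature gilts and were matured in DMEM with PMSG, hCG, EGF, IGF1 and FGF, or in FLI, which is a tissue culture medium (TCM) with pyruvate, glutamine, cysteine, gentamycin, BSA, PMSG, hCG, LIF and other amounts of EGF, FGF2 and IGF1. In every group the cumulus was removed, the oocytes were activated with ionomycin and 6-DMAP without sperm, and the embryos were grown in PZM-3 to the 2-cell, 4-cell or 8-cell stage. All embryos therefore carried maternal genomes only, and the sources do not say whether pools came from separate collections, so p-values measure the spread between these pools, which may be technical.

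Libraries held 1737985 to 6781185 counts, with a median of 4581572. The part of the mapped reads that was counted to a gene fell with stage, from 68.7 to 73.0% in the 2-cell libraries to 21.4 to 63.1% in the 8-cell libraries. It was lowest in 8-cell FLI 3 and, among 8-cell libraries, highest in 8-cell FLI 2. The total count was lowest in 8-cell DMEM 1, whose counted part (48.5%) lay within the range of its group. These 3 libraries, picked after seeing the data, are called below the 8-cell libraries that stand apart. Of 8 embryo markers, 6 were in the table and none of them was at 0 in a group. Summed levels (CPM, counts scaled to a common library size) of 8 markers of cumulus and granulosa cells were 0.994 to 1.92 in 2-cell and 5.60 to 20.3 in later libraries, with LHCGR, HAS2, CYP11A1 and TNFAIP6 at 0 in 13 or more of the 18 libraries and STAR, the highest of them, at 0 in 1 library and at up to 15.9 CPM. Those of 4 blood markers were 1.06 to 3.86 in 2-cell and 2.73 to 30.4 CPM in later libraries. From 2-cell to 4-cell, STAR and the blood marker CD74, at up to 23.9 CPM, were called higher in both media. No fold is given for them because their 2-cell counts were few. The embryo markers summed to 4764 to 5348 CPM in 2-cell and to 282 to 3057 CPM in later libraries. Of these, GDF9, NLRP5, OOEP and ZAR1 were called lower from 2-cell to 4-cell in both media, and BMP15 and ZP3 were not called in either. The sums of the cumulus, granulosa and blood markers were low beside the members and moved with stage, and their part in the results was not tested.

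The genes lie on the mitochondrial chromosome (MT) of Sscrofa11.1, with the same starts and ends in the deposited table and in RefSeq for all 7. ND1 (ENSSSCG00000018065) spans positions 3922 to 4876 and ND2 (ENSSSCG00000018069) positions 5087 to 6128, near the start of the heavy strand transcript. ND3 (ENSSSCG00000018084, 10653 to 10998), ND4L (ENSSSCG00000018086, 11069 to 11365), ND4 (ENSSSCG00000018087, 11359 to 12736) and ND5 (ENSSSCG00000018091, 12935 to 14755) follow each other on the same strand. ND6 (ENSSSCG00000018092, 14739 to 15266) is the 1 member on the other strand.

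ND4L and ND4 share 7 bases and ND5 and ND6 share 17 bases on opposite strands, so reads in these stretches could be counted to either gene. The library kit keeps strand, but the sources used here do not say whether the counting used it. Reads of ND6 and of antisense RNA from the heavy strand can therefore not be told apart, and copies of mitochondrial sequence in the nuclear genome could also share reads with any member. These limits hold for every ND value given here.

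The ND transcripts were among the most abundant of the genes in the deposited table at each stage. Ranked by TPM, a level corrected for gene length and library size, members stood between rank 4 and rank 71 of the genes of the deposited table in a library. ND5 and ND4, large antiporter-like subunits of the proton-pumping arm, were at rank 4 to 9 in each of the 18 libraries. ND4L, the shortest of the ND genes, took rank 13 to 71 and was the lowest member in every group.

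In 2-cell DMEM embryos the order was ND5 at 8472 TPM ± 2305 (SD, n = 3), ND4 at 7643 ± 2318, ND6 at 6632 ± 1836, ND2 at 5921 ± 1315 and ND1 at 5439 ± 1784. ND3 followed at 2719 ± 424 and ND4L at 1399 TPM ± 310. Among neighbours in this order, the ranges of the 3 libraries separated only ND1 from ND3 and ND3 from ND4L, and the first 5 genes overlapped. The order was the same in 2-cell FLI, from ND5 at 9378 TPM ± 2033 down to ND4L at 1519.9 ± 200.2, again with gaps only below ND1.

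By the 8-cell stage the highest level was 27923 TPM ± 6932 for ND5 in DMEM and 21738 ± 8571 in FLI, and the lowest was 5366 ± 1103 and 5713 ± 2162 for ND4L. In 8-cell DMEM only the step from ND3 to ND4L separated the libraries, while all neighbours overlapped in 8-cell FLI. In 4-cell FLI alone, ND4 (14811 TPM ± 1714) stood above ND5 (13109 ± 763), but their libraries overlapped. The fall in level from ND5 and ND4 to ND4L was thus kept at all 3 stages, while the places of ND1, ND2 and ND6 between them could not be told apart within most groups.

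**Figure D1:**
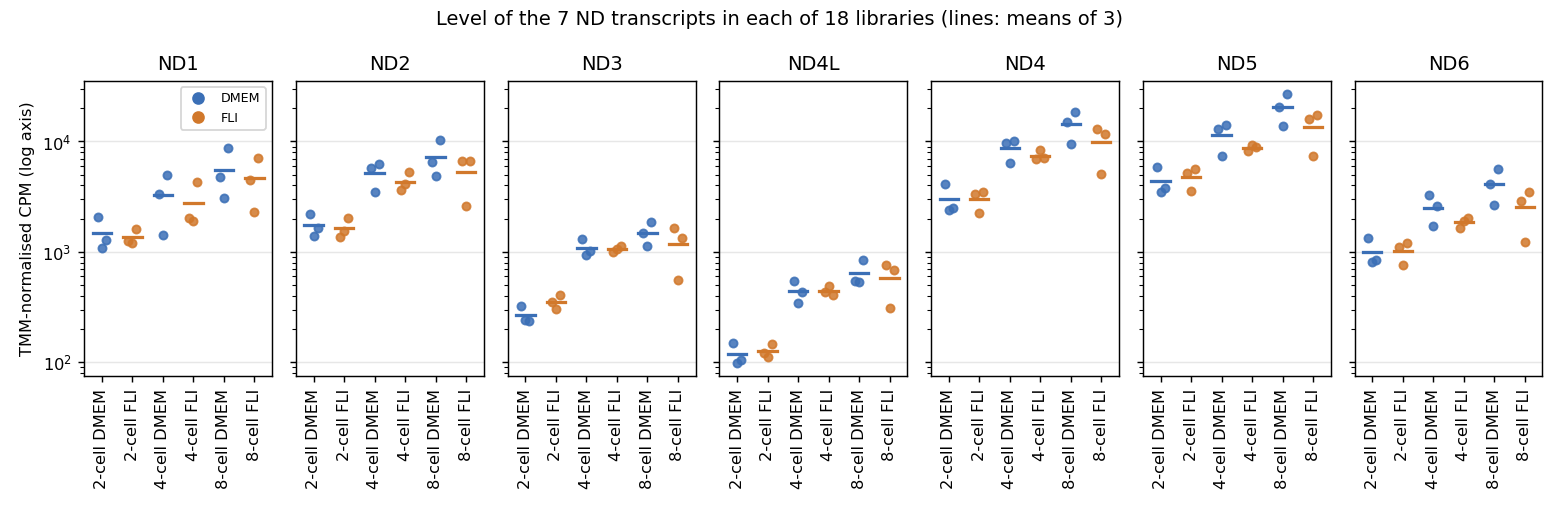
Level of each ND transcript in the 18 libraries as TMM-normalised CPM on a log axis, with points for libraries, lines for means of 3, blue for DMEM and orange for FLI. Within each medium, every gene stood higher at the 4-cell and 8-cell stages than at the 2-cell stage apart from 1 overlapping 4-cell DMEM library of ND1. The 8-cell FLI group is spread by its library 2.

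Together the ND genes took 1.23% ± 0.346 of all counts in 2-cell DMEM and 1.29% ± 0.258 in 2-cell FLI (SD, n = 3). At the 4-cell stage they took 2.96% ± 0.823 in DMEM and 2.53% ± 0.153 in FLI. For 8-cell embryos the share was 5.30% ± 1.79 in DMEM and 4.17% ± 2.11 in FLI. Within 8-cell FLI the 3 libraries gave 4.61, 1.87 and 6.03%, and library 2 lay below all 4-cell libraries. These sums are given as a description, with no test.

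The question of the first comparison was how the level of each transcript differed between 2-cell and 4-cell embryos. In DMEM all 7 members rose, where 35.2% of the 13187 tested genes were called higher, 28.4% lower and 63.6% in either direction (edgeR quasi-likelihood test, Benjamini-Hochberg adjusted p under 0.05 over all tested genes). In FLI 6 of 7 rose, beside 34.6% of all genes called higher, 27.2% lower and 61.9% in either direction, and ND1 was the member not called. The median log2 fold change of the members was 1.54 in DMEM and 1.30 in FLI, beside medians over all tested genes of 0.16 and 0.18. All levels and folds here are relative to the other RNA of a library. A rise is therefore one of share, and the amount of ND RNA per embryo was not measured. In pooled embryos, a change in the number of mitochondria or cells and a change in RNA per cell cannot be told apart. Both comparisons with the 2-cell stage in a medium share its 3 2-cell libraries.

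The ND4L and ND3 transcripts, next to each other on the genome, had the highest fold changes. ND4L, which lies at the base of the membrane arm, was at 151, 98.5 and 105 CPM in the 2-cell DMEM libraries, at 547, 343 and 433 CPM in 4-cell DMEM and at 539, 528 and 848 CPM in 8-cell DMEM. In FLI, ND4L was at 122, 111 and 147 CPM in 2-cell, at 434, 490 and 406 CPM in 4-cell and at 755, 312 and 687 CPM in 8-cell libraries. Every 4-cell and 8-cell library was above every 2-cell library of its medium. From 2-cell to 4-cell, ND4L rose by a log2 fold change of 1.90 in DMEM (SE 0.300, adjusted p = 2.74e-05, edgeR) and 1.81 in FLI (SE 0.299, adjusted p = 4.69e-05).

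ND3, a small subunit at the joint of the membrane arm and the matrix arm, was at 321, 241 and 239 CPM in 2-cell DMEM, at 1311, 934 and 1014 CPM in 4-cell DMEM and at 1468, 1120.3 and 1878 CPM in 8-cell DMEM. In FLI, ND3 was at 348, 306 and 408 CPM in 2-cell, at 998, 1072 and 1138 CPM in 4-cell and at 1634, 554 and 1344 CPM in 8-cell libraries. The 2-cell libraries were again the lowest in each medium, and 8-cell FLI 2 fell below the 4-cell libraries. The rise of ND3 to the 4-cell stage was 2.03 in DMEM (SE 0.306, adjusted p = 1.73e-05, edgeR), the highest log2 fold change of a member in that comparison, and 1.60 in FLI (SE 0.302, adjusted p = 0.000188).

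ND2, ND4 and ND5 are the antiporter-like subunits of the proton-pumping arm. ND2 was at 2214, 1393 and 1643 CPM in 2-cell DMEM, at 5774, 3489.7 and 6205 CPM in 4-cell DMEM and at 6529, 4824 and 10411 CPM in 8-cell DMEM. In FLI, ND2 was at 1349.9, 1549 and 2039 CPM in 2-cell, at 3618, 4086 and 5248 CPM in 4-cell and at 6718, 2606 and 6641 CPM in 8-cell libraries. The lowest 4-cell library was above the highest 2-cell library in both media. ND2 rose to the 4-cell stage by 1.56 in DMEM (SE 0.349, adjusted p = 0.000847, edgeR) and by 1.39 in FLI (SE 0.347, adjusted p = 0.00214).

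ND4 was at 4108, 2381 and 2484 CPM in 2-cell DMEM, at 9617, 6347 and 10098 CPM in 4-cell DMEM and at 14860.0, 9448 and 18451 CPM in 8-cell DMEM. In FLI, ND4 was at 3318, 2251 and 3519.7 CPM in 2-cell, at 6921, 8372 and 7087 CPM in 4-cell and at 13081, 5022 and 11591 CPM in 8-cell libraries. Its 2-cell and 4-cell libraries did not overlap in either medium. The log2 fold change was 1.54 in DMEM (SE 0.334, adjusted p = 0.000651, edgeR) and 1.30 in FLI (SE 0.332, adjusted p = 0.00254).

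ND5, the distal subunit of the membrane arm, was at 5846, 3489 and 3804 CPM in 2-cell DMEM, at 13104, 7447 and 14055 CPM in 4-cell DMEM and at 20559, 13927 and 26655 CPM in 8-cell DMEM. In FLI, ND5 was at 5129.5, 3561 and 5671 CPM in 2-cell, at 8115, 9250.5 and 8839 CPM in 4-cell and at 16023, 7398 and 17263 CPM in 8-cell libraries. The step to the 4-cell stage left no overlap between libraries in CPM, while in TPM 4-cell DMEM 2 (10944) lay below 2-cell DMEM 1 (11108). The log2 fold change was 1.40 in DMEM (SE 0.327, adjusted p = 0.00123, edgeR) and 0.87 in FLI (SE 0.323, adjusted p = 0.0267). The FLI call of ND5 was lost, with adjusted p of 0.0654 to 0.112, when any of 2-cell FLI 1, 2-cell FLI 2 or the 3 4-cell FLI libraries was left out.

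ND6, the membrane arm subunit that is encoded on the light strand transcript, was at 1335, 808 and 840 CPM in 2-cell DMEM, at 3258, 1706 and 2598 CPM in 4-cell DMEM and at 4116, 2662 and 5619.9 CPM in 8-cell DMEM. In FLI, ND6 was at 1109, 760 and 1206 CPM in 2-cell, at 1661, 1906 and 2024 CPM in 4-cell and at 2888, 1221 and 3514 CPM in 8-cell libraries. The 2-cell and 4-cell libraries of each medium were apart in CPM, while in TPM 4-cell DMEM 2 (8644) lay below 2-cell DMEM 1 (8748). ND6 rose by 1.34 in DMEM (SE 0.353, adjusted p = 0.00309, edgeR) and by 0.86 in FLI (SE 0.350, adjusted p = 0.0399). The FLI call of ND6 was lost, with adjusted p of 0.0582 to 0.148, without 2-cell FLI 1 or 2, any 4-cell FLI library, 4-cell DMEM 2, 8-cell DMEM 2 or 8-cell FLI 1.

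ND1, the subunit at the heel of the complex where ubiquinone enters, had the widest spread. It was at 2055, 1079 and 1292 CPM in 2-cell DMEM, at 3327, 1425 and 4971 CPM in 4-cell DMEM and at 4765, 3084 and 8694 CPM in 8-cell DMEM. In FLI, ND1 was at 1246, 1197 and 1627 CPM in 2-cell, at 2019, 1901 and 4319 CPM in 4-cell and at 4487, 2302 and 7147 CPM in 8-cell libraries. Library 2 of 4-cell DMEM fell inside the 2-cell range, which made ND1 the only member with an overlap between 2-cell and 4-cell libraries in CPM. In TPM, ND1 in 4-cell FLI 1 (6004) and 4-cell FLI 2 (5482) also lay below 2-cell FLI 3 (6011), and ND5 and ND6 overlapped in DMEM.

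From 2-cell to 4-cell, ND1 rose by 1.14 in DMEM (SE 0.473, adjusted p = 0.0438, edgeR), while its value in FLI was 1.02 (SE 0.472, adjusted p = 0.0689). The DMEM call of ND1 was lost, with adjusted p of 0.0507 to 0.243, without 2-cell DMEM 2 or 3, 4-cell DMEM 1 or 3, 8-cell DMEM 2, 2-cell FLI 1 or 2, 4-cell FLI 1 or 2, or 8-cell FLI 1. The test of the difference between the media gave -0.12 for ND1 (SE 0.661, unadjusted p = 0.86, edgeR).

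**Figure D2:**
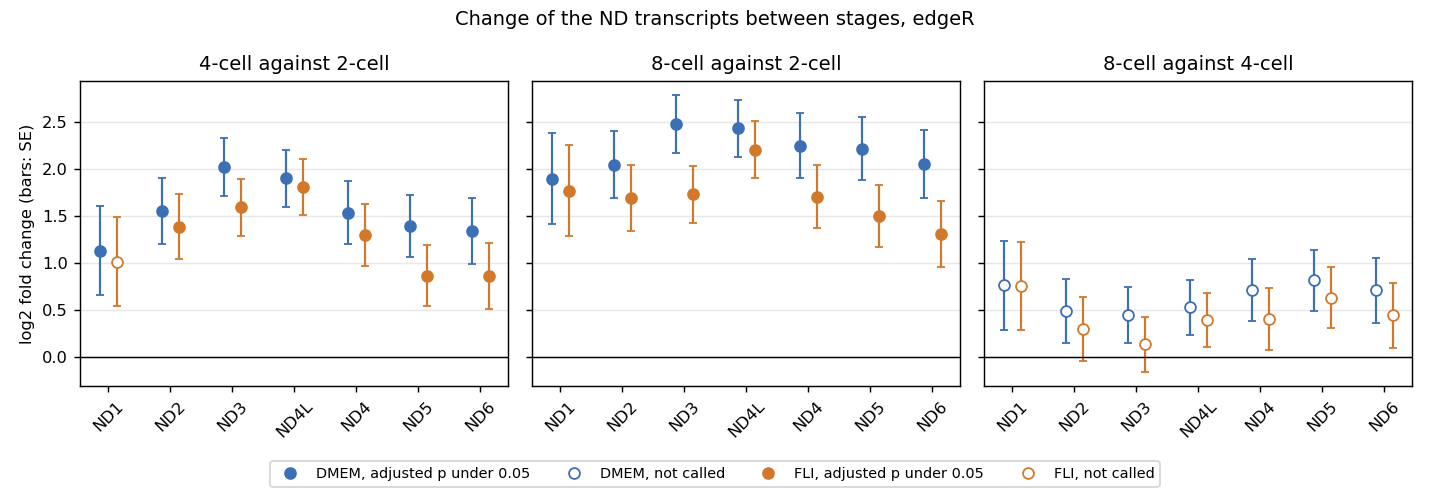
Log2 fold change of each ND transcript between stages with its standard error, in DMEM (blue) and FLI (orange), filled where the adjusted p was under 0.05. The 4-cell and 8-cell values against the 2-cell stage lie between 0.86 and 2.48, and no value of the 8-cell against the 4-cell stage was called.

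Between 2-cell and 8-cell embryos all 7 members rose in both media, beside 35.9% of all tested genes called higher, 29.0% lower and 65.0% in either direction in DMEM, and 34.6%, 24.0% and 58.6% in FLI. The log2 fold changes ran from 1.90 for ND1 (SE 0.483, adjusted p = 0.00244, edgeR) to 2.48 for ND3 (SE 0.311, adjusted p = 2.19e-06) in DMEM. In FLI they ran from 1.31 for ND6 (SE 0.353, adjusted p = 0.00441) to 2.21 for ND4L (SE 0.303, adjusted p = 7.88e-06). Every 8-cell library was above every 2-cell library of its medium for each of the 7 genes in CPM. In TPM, ND6 in 8-cell FLI 2 (7127) lay below 2-cell FLI 1 (7496) and 2-cell FLI 3 (8053). The members' medians were 2.22 in DMEM and 1.71 in FLI, beside 0.19 and 0.24 over all tested genes.

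When libraries were scaled by inferred mapped reads, the median over all genes moved to -0.38 in DMEM and -0.43 in FLI for the 8-cell against the 2-cell stage, and the members' medians to 1.61 and 0.93. All 7 were then called in DMEM and 4 of 7 in FLI, without ND1, ND5 and ND6, and of all genes called in this comparison 40.1% were higher in FLI, in place of 59.1%, and 41.6% in DMEM, in place of 55.3%. For the 4-cell against the 2-cell stage the same scaling moved the median of all genes to -0.15 and -0.03 and that of the members to 1.22 and 1.09. The log2 fold changes of all 7 members from the 2-cell to the 4-cell and 8-cell stages stayed positive under each scaling that was tried.

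Between 4-cell and 8-cell embryos no member was called in either medium by edgeR, beside 0% of all tested genes in DMEM and 0.804% called higher, 2.24% lower and 3.05% in either direction in FLI. All 7 values were above 0, from 0.45 for ND3 to 0.82 for ND5 (SE 0.323, adjusted p = 0.251) in DMEM and from 0.14 for ND3 to 0.76 for ND1 (SE 0.470, adjusted p = 0.392) in FLI. Their libraries overlapped for every member in both media. Without adjustment, p was under 0.05 for 771 higher and 1136 lower genes in DMEM, among them ND4 and ND5, and for 1171 and 1458 in FLI, with no member. DESeq2 and limma called no member in this step either.

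The 8-cell libraries that stand apart bore on this step. Without 8-cell FLI 2, ND5 was called higher at the 8-cell stage in FLI (adjusted p = 0.0372, edgeR), among 622 higher and 1596 lower genes. An alternative chosen after seeing the data left out 8-cell DMEM 1, 8-cell FLI 2 and 8-cell FLI 3, which keeps only 8-cell FLI 1 in its group. There the values in DMEM were 0.63 for ND4L and 0.805 for ND5. Scaled by inferred mapped reads, ND2, ND3, ND4, ND4L and ND6 turned to values of -0.38 to -0.11 in FLI, with none called.

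Comparing the media at the same stage asks whether maturation in FLI was followed by other levels of these transcripts. No member was called at any stage, and neither was any of the 13187 genes by edgeR (0%). At the 2-cell stage the members ranged from -0.12 for ND1 to 0.41 for ND3 (log2, FLI against DMEM), with 5 of 7 above 0. At the 4-cell stage 6 of 7 were below 0, down to -0.44 for ND6 (SE 0.348), and at the 8-cell stage all 7 were, from -0.13 for ND4L to -0.70 for ND6 (SE 0.349, adjusted p = 0.650).

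The media overlapped for all 7 members at each stage, and the values near 0 changed sign under other scalings and without single libraries. Without adjustment, p was under 0.05 for 179 genes above and 105 below in FLI at the 2-cell, 151 and 154 at the 4-cell and 452 and 583 at the 8-cell stage, none of them a member. DESeq2 called 1 gene at the 2-cell, 0 at the 4-cell and 7 higher and 22 lower at the 8-cell stage, and limma 0 at each stage, again no member. Averaged over stages, 6 of 7 members were below 0, from -0.01 for ND4L to -0.37 for ND6 (SE 0.202, adjusted p = 0.999), with ND3 at 0.01. No gene was called by edgeR (0%) or limma and 11 by DESeq2, no member among them, and 207 genes above and 393 below had an unadjusted p under 0.05.

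The test of whether the stage steps differed between media gave no call. For the step from 2-cell to 4-cell the difference of FLI from DMEM was below 0 for all 7 members, from -0.09 for ND4L to -0.53 for ND5, and for the step from 4-cell to 8-cell from -0.01 for ND1 to -0.32 for ND3. None of the tested genes was called (0%) by edgeR, DESeq2 or limma. Without adjustment, p was under 0.05 for 119 and 218 genes in the earlier and 252 and 153 in the later step, with no member.

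The study also set 4-cell FLI beside 8-cell DMEM, 2 groups that differ in both stage and medium. All 7 members were lower in 4-cell FLI in value, from -0.48 for ND3 to -1.22 for ND5 (SE 0.326, adjusted p = 0.128), and none was called by edgeR, as for all genes (0%). At an unadjusted p under 0.05 the members were ND1, ND2, ND4, ND5 and ND6, among 1144 higher and 880 lower genes. DESeq2 called ND5 lower (adjusted p = 0.0204), among 276 higher and 188 lower genes, and so did a model of only these groups (adjusted p = 0.0439, among 47 higher and 33 lower genes). Without 8-cell FLI 2, which belongs to neither group, ND4, ND5 and ND6 were called lower (adjusted p of 0.0118 to 0.0436), among 411 higher and 150 lower genes. Leaving out the 3 8-cell libraries that stand apart keeps only 8-cell FLI 1 in its group. In that fit the 6 members other than ND3 had values from -0.62 for ND4L to -1.20 for ND5.

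The balance among the ND transcripts within a library does not depend on scaling between libraries. The 3 ratios of counts per kilobase were each followed over 4 comparisons, and tested by exact permutation of libraries within medium or within stage (two-sided, adjusted over the 12 tests). The lowest p that the stage tests could give was 0.005.

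The ratio of ND6 to the mean of the 6 heavy strand members was 1.27, 1.29 and 1.21 in 2-cell DMEM, 1.28, 1.11 and 0.965 in 4-cell DMEM and 1.19, 1.10 and 1.15 in 8-cell DMEM. In FLI it was 1.36, 1.14 and 1.25 in 2-cell, 0.972, 0.993 and 0.950 in 4-cell and 0.894, 0.909 and 1.05 in 8-cell libraries. In both media every 8-cell library lay below every 2-cell library, and library 1 of 4-cell DMEM was the only 4-cell library within the 2-cell range of its medium.

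From 2-cell to 8-cell the ND6 ratio fell to 0.834 of its value (exact permutation test, n = 6 against 6, p = 0.005, adjusted p = 0.03), and from 2-cell to 4-cell to 0.831 (p = 0.015, adjusted p = 0.0438). Between 4-cell and 8-cell it differed by 0.0051 in log2 (exact permutation test, p = 0.95). Across media it was lower in FLI, 0.894 of the DMEM value (exact permutation test, p = 0.0182, adjusted p = 0.0438, n = 9 against 9), and the media were apart at the 8-cell stage only.

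The adjusted p of these ND6 calls moved to 0.051 to 0.082 without single libraries, while the unadjusted p stayed at or below 0.0403. For 8-cell against 2-cell this held for 2-cell DMEM 1 and 2 and for the 3 4-cell FLI libraries, of which the latter enter only through the adjustment over 12 tests. For 4-cell against 2-cell it held for 2-cell DMEM 1 and 2, 4-cell DMEM 3, 2-cell FLI 2 and 3, the 4-cell FLI libraries and 8-cell FLI 1 and 2, and for the media for all libraries but 2-cell DMEM 3, 4-cell DMEM 3, 2-cell FLI 1 and 8-cell FLI 3. As a ratio of raw counts, in which long genes weigh more, the 4-cell and the medium differences were not called (permutation tests, adjusted p = 0.072 and 0.082).

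The ratio of ND4L to ND4, which in mammals share 1 mature mRNA, was far below 1 in all libraries. It was 0.170, 0.192 and 0.195 in 2-cell DMEM, 0.264, 0.251 and 0.199 in 4-cell DMEM and 0.168, 0.259 and 0.213 in 8-cell DMEM. In FLI it was 0.170, 0.229 and 0.193 in 2-cell, 0.291, 0.271 and 0.266 in 4-cell and 0.268, 0.288 and 0.275 in 8-cell libraries. Every 4-cell library was above every 2-cell library of its medium, and 8-cell DMEM 1 lay below all 2-cell libraries.

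The ND4L to ND4 ratio rose 1.34-fold from 2-cell to 4-cell (exact permutation test, n = 6 against 6, p = 0.005, adjusted p = 0.03) and was 1.18-fold higher in FLI than in DMEM (exact permutation test, p = 0.0163, adjusted p = 0.0438, n = 9 against 9). From 2-cell to 8-cell it was 1.27-fold with an adjusted p of 0.05, which did not pass, and without 8-cell DMEM 1 it did (adjusted p = 0.02). ND4L, at 297 bases, is shorter than any other member, and the sources used here do not say how fragments of short genes were counted.

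The 4-cell call of the ND4L to ND4 ratio moved to an adjusted p of 0.053 to 0.0645 without 2-cell DMEM 1 or 2 or any 4-cell FLI library. The medium call moved to 0.053 to 0.099 without 2-cell DMEM 1 or 2, 4-cell DMEM 3, 8-cell DMEM 1, 2-cell FLI 2 or 3, or any 4-cell or 8-cell FLI library. With the 3 8-cell libraries that stand apart left out, the medium difference had an adjusted p of 0.192 (permutation test).

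The ratio of ND5 to ND1, far apart on the same transcript, was not called in any of the 4 comparisons, with means of 1.71 at the 2-cell, 2.00 at the 4-cell and 1.84 at the 8-cell stage (n = 6 each). Its libraries ran from 1.07 to 2.74 at the 4-cell stage.

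**Figure D3:**
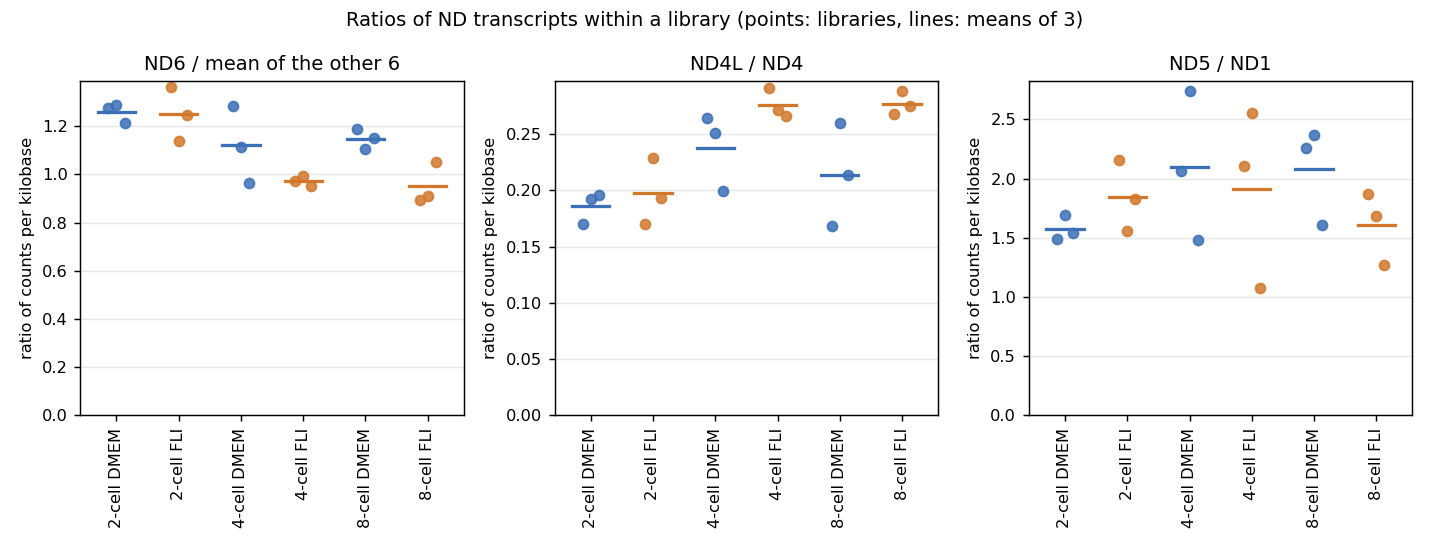
Ratios of counts per kilobase within each library for ND6 to the mean of the other 6 members, ND4L to ND4 and ND5 to ND1, with points for libraries, lines for means of 3, blue for DMEM and orange for FLI. The ND6 ratio of the 8-cell libraries lies at 0.894 to 1.19 and that of the 2-cell libraries at 1.14 to 1.36, apart within each medium, and the ND4L ratio stands highest in 4-cell and 8-cell FLI, between 0.266 and 0.291.

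As shares of the summed ND level per kilobase, ND5 held 22.7% ± 1.19 and ND4 19.7% ± 1.14 at the 2-cell stage (SD, n = 6 libraries of both media). ND6 held 17.3% ± 0.863 at the 2-cell, 14.8% ± 1.55 at the 4-cell and 14.9% ± 1.504 at the 8-cell stage. ND3 held 8.21% ± 1.22, then 11.5% ± 1.77 and 9.37% ± 1.07, and ND4L 3.76% ± 0.215, 5.47% ± 0.931 and 5.14% ± 0.888. ND1 held 13.4% ± 1.22, 10.9% ± 3.67 and 12.7% ± 2.58, with the highest SD of a member at the 4-cell and 8-cell stages.

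Members moved together among the pools of a group. Deviations of the log2 level from the group mean correlated with r of 0.872 to 0.978 in the 15 pairs that leave out ND1, as a description over 18 libraries that share depth and scaling. ND4 with ND5 gave 0.978 and ND5 with ND6, on opposite strands and overlapping, 0.973. Other mitochondrial genes moved with the members too: ND4 correlated with CYTB at 0.984, COX3 at 0.968 and ATP6 at 0.963, but with ATP8 at 0.512. ND1 correlated with the other members at 0.686 to 0.907, and with COX1 at 0.921 and ATP8 at 0.885. The SD within groups was 0.68 in log2 for ND1, above 82.4% of all tested genes, and 0.39 to 0.50 for the other members, beside a median of 0.46 over all tested genes and of 0.29 over those with a mean of at least 100 CPM, above which every member lay.

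The 6 other proteins of the mitochondrial genome, subunits of cytochrome c oxidase, ATP synthase and the cytochrome b of complex III, took the same direction from 2-cell to 4-cell. In DMEM 5 of 6 rose with a median log2 fold change of 1.65 over the 6, led by COX3 at 1.84 (SE 0.257, adjusted p = 6.84e-06, edgeR), and ATP8 at 1.01 (adjusted p = 0.101) was not called. In FLI all 6 rose, with a median of 1.69 and CYTB lowest at 1.07 (SE 0.314, adjusted p = 0.00687). COX1 was at 1.56 and 1.59, COX2 at 1.78 and 1.79 and ATP6 at 1.74 and 1.83 in DMEM and FLI. None was called between 4-cell and 8-cell.

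Of the counts of all 13 mitochondrial protein genes, the ND genes held 45.2% ± 1.77 in 2-cell DMEM, 41.9% ± 3.31 in 4-cell DMEM and 47.1% ± 1.92 in 8-cell DMEM (SD, n = 3). In FLI they held 47.6% ± 1.89, 39.5% ± 0.820 and 43.6% ± 3.94. The 4-cell share was the lowest of the 3 stages in both media, and in FLI no 4-cell library reached the 2-cell range. The differences were not tested.

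Nuclear genes of complex I were measured in the same libraries: 50 of a list of 56 were in the table and 49 were tested. From 2-cell to 4-cell, 30 rose and 1 fell in DMEM and 30 rose and 2 fell in FLI, with medians of 1.87 and 1.84 in log2. The core subunits, which hold the flavin and the iron-sulfur clusters, had 4 of 6 called higher in each medium, the accessory subunits 18 of 26 and the assembly factors 8 of 17. Where the members lay between 0.86 and 2.03, the nuclear genes ran from -0.95 in DMEM and -0.89 in FLI to values above those of NDUFAF5, at 4.16 and 3.897.

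**Figure D4:**
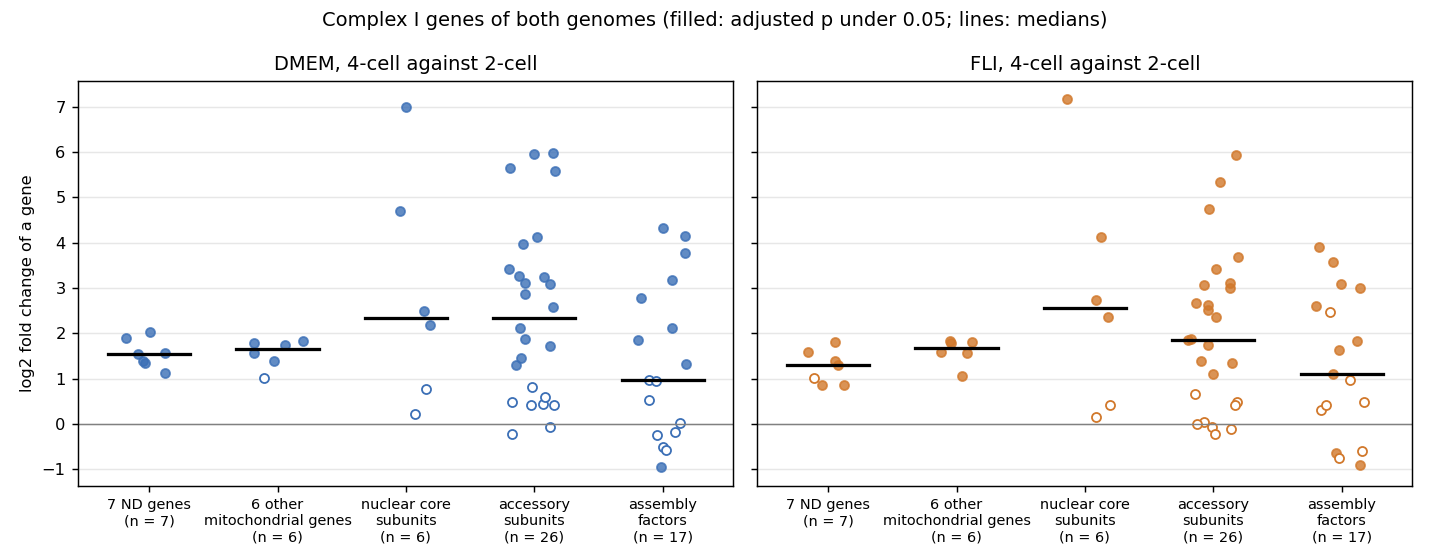
Log2 fold change from 2-cell to 4-cell of the 7 ND genes, the 6 other mitochondrial protein genes and the nuclear core, accessory and assembly genes of complex I, filled where the adjusted p was under 0.05, with lines at medians. Mitochondrial genes lie between 0.86 and 2.03 and nuclear genes on both sides of them, and the highest point, NDUFV1, rests on few 2-cell counts and is no exact fold.

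NDUFV1 (ENSSSCG00000012896, chromosome 2, 4958522 to 4964216), the core subunit that binds NADH, was at 0.865, 0.192 and 0.428 CPM in 2-cell DMEM and at 71.3, 71.0 and 51.2 CPM in 4-cell DMEM. It was called higher in DMEM (adjusted p = 2.75e-09, edgeR) and in FLI (adjusted p = 3.13e-09), and no fold is given because most 2-cell libraries held 3 counts or fewer. The ND members, which belong to the same complex as NDUFV1, were at 98.5 CPM or more in each 2-cell library. NDUFV2, the partner of NDUFV1 in the NADH-binding module, was not called in either medium (0.21 in DMEM and 0.16 in FLI).

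Among the other nuclear genes with the lowest p, NDUFAF5, an assembly factor, was at 3.89, 4.99 and 2.71 CPM in 2-cell DMEM and at 65.4, 73.8 and 66.8 CPM in 4-cell DMEM, a rise of 4.16 (SE 0.331, adjusted p = 4.43e-09, edgeR). NDUFB11, an accessory subunit of the membrane arm, rose by 3.24 in DMEM (SE 0.312) and 3.11 in FLI (SE 0.310). NDUFB9, of the same arm, rose by 2.87 (SE 0.258) and 1.88 (SE 0.248). The genes that fell were TMEM70, an assembly factor also known for ATP synthase, in both media (-0.95 and -0.64), and NUBPL, an iron-sulfur assembly factor, in FLI (-0.89).

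The proteins that transcribe the mitochondrial genome and bind or degrade its RNA are nuclear products too. Of 26 genes in this list, 18 rose in each medium from 2-cell to 4-cell, while 5 fell in DMEM and 6 in FLI, and the medians were 1.59 and 1.67. TFAM, which packs mitochondrial DNA and is needed for its transcription, had 0.00, 0.384 and 0.143 CPM in 2-cell DMEM and 246, 208 and 233 CPM in 4-cell DMEM. For TFAM in FLI the values were 0.00, 0.336 and 0.202 CPM in 2-cell and 192, 181 and 201 CPM in 4-cell libraries. By library, 3 counts, the limit that a count of 0 sets, were worth 0.442 to 1.73 CPM, and the 2-cell levels of TFAM lay below that of their own library. No fold is given, and the gene was called higher in both media.

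POLRMT, the mitochondrial RNA polymerase, was at 3.03, 1.15 and 0.713 CPM in 2-cell DMEM and at 116, 151 and 86.9 CPM in 4-cell DMEM. It rose by 6.23 in DMEM (SE 0.460, adjusted p = 1.63e-09, edgeR) and was called higher in FLI (adjusted p = 2.56e-09). TFB2M, the initiation factor that works with POLRMT, was at 0.649, 0.00 and 0.00 CPM in 2-cell DMEM and at 38.2, 39.2 and 30.2 CPM in 4-cell DMEM, and was called higher in both media.

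Among RNA-binding proteins, LRPPRC, which stabilises mRNAs of the heavy strand, was at 108, 116 and 115 CPM in 2-cell DMEM and rose by 1.68 in DMEM (SE 0.370, adjusted p = 0.000741, edgeR) and in FLI (SE 0.371). SLIRP, its partner, was at 0.00, 0.576 and 0.713 CPM in 2-cell DMEM and at 14.5, 21.4 and 19.8 CPM in 4-cell DMEM, and was called higher in both media. GRSF1, a protein of mitochondrial RNA granules that in human cells binds ND6 and other light strand RNA, was at 160, 167 and 178 CPM in 2-cell DMEM and rose by 0.73 in DMEM (SE 0.203, adjusted p = 0.0047) and 0.70 in FLI (SE 0.203).

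FASTK, which in mouse and human cells is needed for mature ND6 mRNA, was at 0.433, 0.384 and 0.856 CPM in 2-cell DMEM and at 9.84, 13.7 and 14.6 CPM in 4-cell DMEM, and was called higher in both media (adjusted p = 3.93e-06 in DMEM, edgeR). Its 2-cell counts were too few for a fold. TBRG4, of the same family as FASTK, rose by 3.44 in DMEM (SE 0.310) and 2.73 in FLI (SE 0.299). FASTKD1, another family member, fell by 2.66 in DMEM (SE 0.424) and by 2.53 in FLI (SE 0.417), and REXO2, a mitochondrial exonuclease of short RNA, fell by 1.24 and 1.52.

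Over the 18 libraries, the genes most alike to the mean log2 level of the members, outside the mitochondrial genome, were SPTBN4 (Pearson's r 0.946), DSC2 (0.944), KRT10 (0.944), LAMTOR2 (0.943) and C12orf29 (0.940), of 11685 genes compared. Their mean levels at the 2-cell stage were 0.048 to 3.39 CPM, and the 2-cell libraries form a separate cluster. Within the 12 later libraries r was 0.785 to 0.884, and within the 6 2-cell libraries 0.066 to 0.642. By Spearman's rho the first 5 were GALP, SPTBN4, P2RY13, LAMTOR2 and MBNL1.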

How the data were processed

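RNA of 18 embryo pools was isolated with RNAqueous Micro, and libraries were made with the SMARTer Stranded Total RNA-Seq Pico kit and sequenced on a NovaSeq. By the paper's methods, the authors mapped reads with bowtie2, obtained expression values with Illumina Dragen and compared genes with DESeq2. The sources used here give no versions. The submitters' processing notes name Sscrofa11.1.

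The deposited counts per gene and library were used for all tests. The TPM of the authors were used for levels between genes, and the RPKM of the authors only to infer mapped reads per library, from the 13 mitochondrial protein genes, which agreed on a whole number of reads within 0.01. The 18 deposited CPM columns were not used. CPM given here were computed from counts with TMM.

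Tests of counts ran in edgeR 4.0.16 under R 4.3.3. filterByExpr kept 13187 genes, TMM set the scaling, and counts were fitted in 1 model of 6 group means with glmQLFit and glmQLFTest. DESeq2 1.42.0 and limma 3.58.1 (voom) served as alternatives, beside other scalings, no filter, a replicate block and each library left out. Ratios used counts per kilobase and exact permutation in Python 3.11.15. The fits were tested on simulated data. Summed shares were planned with a test and are given without one. Intervals and limits from a count of 0 (3 counts) cover counting error only.

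The members and the lists were chosen with earlier results of these data known. Genes named were all 13 mitochondrial protein genes, the 4 nuclear complex I and the 4 mitochondrial RNA genes with the lowest p from 2-cell to 4-cell in DMEM, 6 RNA genes named by function, and the 5 genes most alike by Pearson's r. NDUFV2, TMEM70, NUBPL, FASTKD1, REXO2, GALP, P2RY13 and MBNL1 were named after their values were seen.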

Additional observations from a re-analysis of the deposited data

How the results depend on the processing

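The 7 members kept their direction from 2-cell to 4-cell and to 8-cell under every setting run. Over all member fold changes and settings, 2109 values kept direction and side of the threshold, 38 lost and 17 gained a call, and 62 changed sign, none of them a called value. The DMEM call of ND1 from 2-cell to 4-cell was lost with limma (adjusted p = 0.0639), upper quartile scaling (0.102), library size only (0.0903), TMM outside the mitochondrial genome (0.0593) and mapped reads (0.111). The FLI calls of ND5 and ND6 were lost with upper quartile scaling, library size only and mapped reads, and that of ND6 with DESeq2 size factors. The causes were not tested.

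Same-numbered libraries correlated at -0.284 to 0.444 (45 pairs, median 0.0188), and differently numbered ones at -0.484 to 0.529 (90 pairs, median -0.0061). These values show no clear pairing by number, but cannot tell whether same-numbered pools shared a collection. With the number as a replicate block, ND1 was called higher from 2-cell to 4-cell in FLI (adjusted p = 0.0166, edgeR), as it was with only the groups compared (0.00132), so 7 of 7 were. Over all genes, that step gave 4494 higher and 3491 lower with the block, and 4519 and 4273 with only the groups compared. With the block, ND3 in FLI against DMEM at the 4-cell stage became 0.00298. When 8-cell DMEM 1, FLI 2 and FLI 3 were left out, which keeps only 8-cell FLI 1 in its group, the FLI value of ND1 was 1.02.

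Among comparisons of media, signs changed for values near 0. FLI against DMEM at the 4-cell stage became -0.0257 for ND4L (DESeq2 and its size factors) and, for ND3, 0.0427 (library size) and 0.0746 (mapped reads). At the 8-cell stage ND4L became 0.0317 (library size) and 0.14, and ND3 0.12, without those 3 libraries, and ND4 at the 2-cell stage -0.00252 (TMM outside the mitochondrial genome). Over stages ND3 became -0.043 (limma) and ND4L 0.0356 (upper quartile), 0.0797 (library size), 0.00484 (TMM outside the mitochondrial genome), 0.00263 (no filter) and 0.0706 (without the 3 libraries). For 8-cell against 4-cell in FLI, ND3 became -0.0168 with limma, and with mapped reads, which moved the members' median from 0.41 to -0.12 and that of all genes from 0.03 to -0.38, ND2 became -0.24, ND3 -0.38, ND4 -0.11, ND4L -0.12 and ND6 -0.14.

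Members called lower in 4-cell FLI than in 8-cell DMEM numbered 1 with DESeq2, 1 with only those groups and 6 without the 3 libraries, against 0. Members called higher at the 8-cell than the 2-cell stage in FLI numbered 4 with mapped reads, among 2911 higher and 4346 lower genes.

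In log2, the ND6 ratio became -0.19 (4-cell against 2-cell), -0.0464 (8-cell against 4-cell) and -0.13 (FLI against DMEM) with raw counts, and -0.27, -0.0502 and -0.18 without the 3 libraries, where 8-cell against 2-cell was -0.32. The ND4L ratio became 0.23 between media with raw counts, and 0.16 between media and 0.42 for 4-cell against 2-cell without the 3 libraries, and the ND5 ratio 0.00164 for 8-cell against 4-cell. None of these was called.

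Computed from TPM, the ND share of the 13 genes was 40.7, 37.8 and 41.9% in DMEM and 43.4, 35.7 and 39.0% in FLI by stage, and that of all genes 3.82, 7.74 and 12.1% in DMEM and 4.00, 6.91 and 10.1% in FLI.

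Without single libraries, members higher at the 8-cell than the 4-cell stage in FLI numbered 0 to 1, and those lower in 4-cell FLI than 8-cell DMEM 0 to 3. Between media at the 2-cell stage the values ran from -0.30 to 0.19 for ND1, -0.27 to 0.12 for ND2, -0.12 to 0.32 for ND4, -0.020 to 0.31 for ND4L, -0.0123 to 0.39 for ND5 and -0.0905 to 0.31 for ND6. At the 4-cell stage they ran from -0.72 to 0.21 for ND1, -0.10 to 0.14 for ND3 and -0.13 to 0.20 for ND4L, at the 8-cell stage from -0.67 to 0.23 for ND1 and -0.36 to 0.15 for ND4L, and over stages from -0.0492 to 0.13 for ND3 and -0.0632 to 0.0832 for ND4L. For 8-cell against 4-cell in FLI, ND3 ran from -0.21 to 0.41. The ND6 ratio ran from -0.32 to -0.22 (4-cell against 2-cell), -0.0465 to 0.0566 (8-cell against 4-cell), -0.30 to -0.23 (8-cell against 2-cell) and -0.20 to -0.13 (media), the ND4L ratio from 0.37 to 0.48, 0.26 to 0.42 (8-cell against 2-cell) and 0.18 to 0.28 (media), and the ND5 ratio from -0.27 to 0.0451 (8-cell against 4-cell) and -0.20 to 0.0133 (media).

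Counts over all genes also moved. For 8-cell against 2-cell in FLI, 2098 genes were called lower with only the groups compared, against 3163. For 8-cell against 4-cell in DMEM, DESeq2 called 150 higher and 294 lower, against 0. In FLI that step gave 106 and 296, beside 485 and 704 with DESeq2, 205 and 113 with upper quartile scaling and 163 and 125 with library size only. It gave 137 and 214 with TMM outside the mitochondrial genome, 51 and 87 without a filter and 31 and 149 with the replicate block. With mapped reads it gave 0 and 9, with only the groups compared 0, and without single libraries 0 to 622 and 0 to 1596. Depth limits statements on genes such as TFAM at the 2-cell stage, not those on the members.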
